A study of Mus musculus with 6 samples.

Results

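Cyclin D1 (Ccnd1) and 8 further genes that govern entry into the cell cycle were followed in mouse liver RNA. The 9 genes were taken by symbol: the D-type cyclins Ccnd1, Ccnd2 and Ccnd3, their kinases Cdk4 and Cdk6, the kinase inhibitors Cdkn1a and Cdkn1b, the retinoblastoma gene Rb1, and Myc. All 9 were found among the 23282 rows of the count tables, each as 1 row, and all 9 passed the filter on low counts. The list was put together with earlier results of these libraries known, and Ccnd1 heads it because its count was lower with atractylodin. The difference of these 9 genes between the groups is therefore a description, and no p-value is given for it.

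The study tested atractylodin, which Atractylodes plants make, on fatty liver. Male C57BL/6N mice were 8 weeks old when put on a high-fat diet, which they ate for 12 weeks in all. For the last 4 weeks, after 8 weeks of diet, vehicle or atractylodin (10 mg/kg, oral) was given on 5 days of each week. Each group had 3 liver libraries, made by QuantSeq, which reads the 3' end of transcripts. All 6 libraries came from mice on the high-fat diet, and no other diet is compared. The labels do not say that each library is a separate animal, so errors measure the spread between libraries.

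As background, D-type cyclins are made when growth signals reach a resting cell. They bind the kinases CDK4 and CDK6, and the complex phosphorylates the retinoblastoma protein, which then releases E2F transcription factors that switch on genes of DNA replication. The inhibitors p21 (from Cdkn1a) and p27 (from Cdkn1b) bind these complexes, and MYC drives growth and division genes. Most hepatocytes of an adult liver are at rest, and cyclin D1 is known to rise when they re-enter the cycle after loss of liver tissue.

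Total counts were 1831461 in vehicle 1 and 9871762 to 12565393 in the other 5 libraries. Levels are counts scaled to a common library size (CPM) on library sizes scaled by TMM, a method that centres the bulk of genes. A count of 3 equalled 1.61 CPM in vehicle 1 and at most 0.313 CPM elsewhere. Albumin (Alb), the defining hepatocyte transcript, stood at 54155 ± 1488 CPM (SD, n = 3) with vehicle and 52148 ± 4171 CPM with atractylodin. Of 12505 rows tested (edgeR, quasi-likelihood, Benjamini-Hochberg), 7.25% were past 0.05 in either direction, 3.33% lower and 3.92% higher with atractylodin. Of the calls 45.9% were lower, against 69.4% when libraries were scaled by total counts alone.

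Of the 9 genes, Ccnd1 was called lower, none was called higher and 8 were not called by edgeR. Among all tested rows 3.33% were called lower and 3.92% higher. Since Ccnd1 was chosen for this difference, nothing is read from that count. DESeq2 and limma-voom likewise called Ccnd1 and no other of the 9. An unadjusted p under 0.05 in edgeR was seen in 1 of the 9, beside 21.5% of all tested rows. Fitted estimates were lower for 4 genes and higher for 5. Their median log2 fold change was 0.15, beside -0.00 over all tested rows.

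Ccnd1 lies on chromosome 7, 144929931 to 144939925, on the minus strand of GRCm38. Its level was 75.9, 52.5 and 84.8 CPM in vehicle 1, 2 and 3, from 141, 611 and 1049 counts. It was 16.6, 19.9 and 18.4 CPM in atractylodin 1, 2 and 3, from 167, 191 and 220 counts. Every atractylodin library was below every vehicle library, as in 12.6% of all tested rows. The vehicle libraries were spread more widely (coefficient of variation 23.5% against 9.02%). The fitted level was 3.85-fold lower with atractylodin, or -1.95 ± 0.17 (SE) on the log2 scale. When each of the 6 libraries was left out in turn, the estimate lay between -2.14 and -1.76. The gene was called in each, which is a description, since it was chosen for this difference. Vehicle 1, the shallow library, was not at the edge of its group, and without it the estimate was -1.90. The annotated gene LTO1, named Oraov1 in the count tables, runs over the 3' end of Ccnd1 on the opposite strand. Oraov1 stood at 9.42 ± 2.23 CPM (SD, n = 3) with vehicle and 6.70 ± 0.919 CPM with atractylodin (not called, edgeR adjusted p = 0.175). The strand setting of the counting is not given in the sources used here, and a sharing of reads between Ccnd1 and Oraov1 was not tested.

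**Figure D1:**
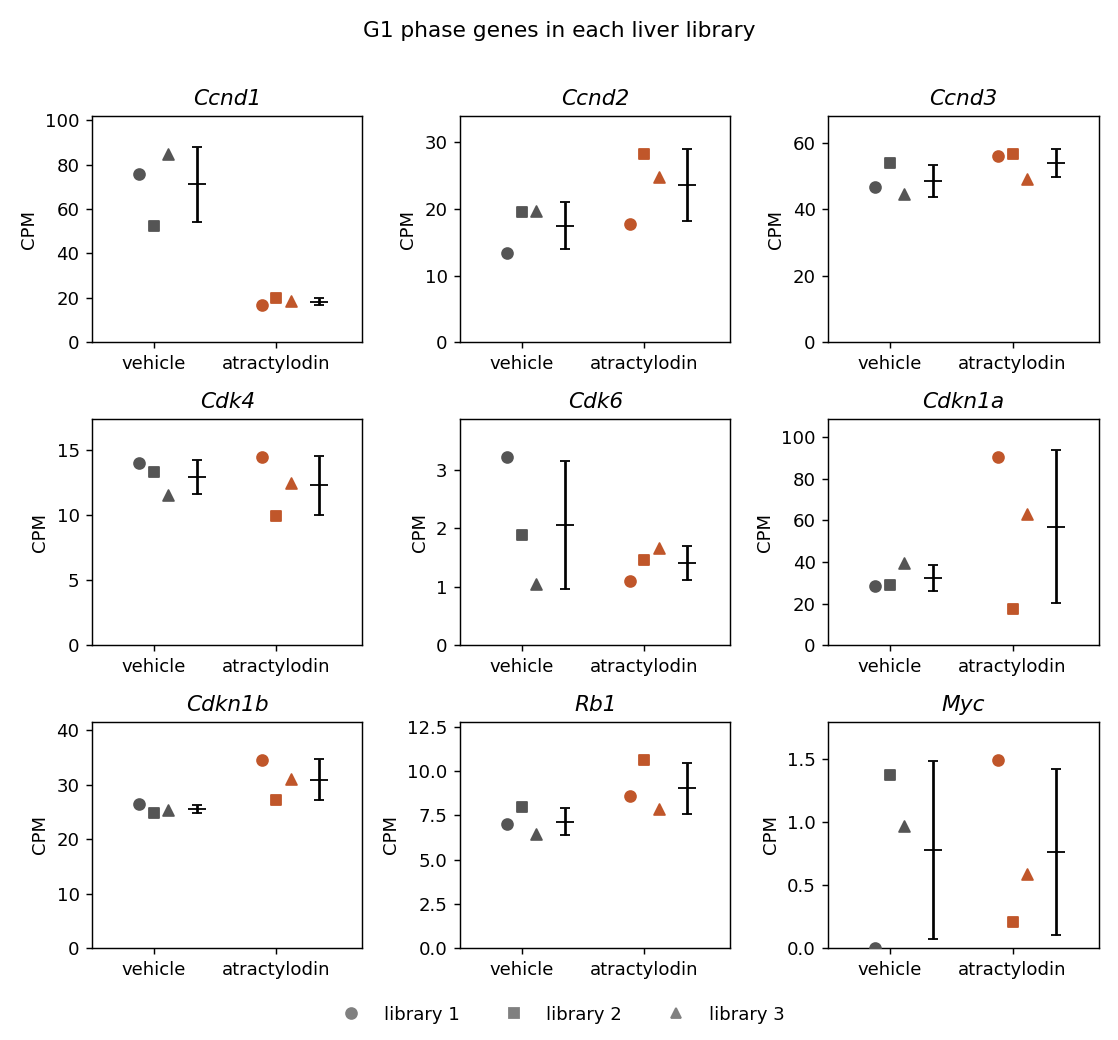
CPM (y axis, from 0, with its own scale in each panel) of the 9 genes in the 3 vehicle and 3 atractylodin libraries. Each point is a library, marker shapes give its number within its group, and the bar beside each group is the mean ± SD. Ccnd1 lies at 52.5 to 84.8 CPM with vehicle and 16.6 to 19.9 CPM with atractylodin, while the groups of 7 other genes overlap and those of Cdkn1b do not.

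Ccnd2 (chromosome 6, 127125162 to 127152193) encodes cyclin D2, which binds the same kinases. It stood at 13.5, 19.5 and 19.6 CPM in the vehicle libraries and at 17.7, 28.3 and 24.9 CPM in the atractylodin libraries. Atractylodin 1 lay within the range of the vehicle group, so the groups overlapped. The log2 fold change was 0.36 ± 0.18 (SE), with a 95% interval from -0.02 to 0.75. Only 25 counts stood behind the value of vehicle 1, and without that library the estimate was 0.28.

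Ccnd3 (chromosome 17, 47505051 to 47599691) encodes cyclin D3. Its level was 46.8, 54.0 and 44.6 CPM with vehicle and 56.1, 56.7 and 49.1 CPM with atractylodin. The groups overlapped, since atractylodin 3 was below vehicle 2. The log2 fold change was 0.15 ± 0.12 (SE), with a 95% interval from -0.10 to 0.39. The interval of Ccnd1 ran from -2.30 to -1.59 and lay below those of both relatives, though Ccnd1 was chosen for that value. The antisense neighbour Bysl, which covers the 3' end of Ccnd3, stood at 60.0 ± 3.29 and 66.6 ± 3.50 CPM (SD, n = 3) and did not pass (edgeR adjusted p = 0.425).

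The make-up of the D-type cyclin counts within each library does not depend on scaling between libraries. Ccnd1 gave 55.7%, 41.6% and 56.9% of the summed counts of the 3 cyclins in vehicle 1, 2 and 3. Their exact (Clopper-Pearson) 95% binomial intervals were 49.4% to 62.0%, 39.1% to 44.2% and 54.6% to 59.2%, which cover counting error only. In atractylodin 1, 2 and 3 Ccnd1 gave 18.4% (15.9% to 21.1%), 19.0% (16.6% to 21.6%) and 19.9% (17.6% to 22.4%). The atractylodin libraries lay within each other's intervals, and vehicle 2 lay below the intervals of the other vehicle libraries. Ccnd3 gave 35.7% ± 6.57 (SD, n = 3) with vehicle and 56.4% ± 4.87 with atractylodin. Ccnd2 gave 12.8% ± 2.81 and 24.5% ± 4.24. The 3 shares make up the whole, and Ccnd1 was chosen for its lower level. Higher shares of Ccnd2 and Ccnd3 follow from that, and neither gene was called by edgeR.

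The summed level of the 3 D-type cyclins was 136, 126 and 149 CPM in the vehicle libraries and 90.5, 105 and 92.4 CPM in the atractylodin libraries. The sum was thus lower in every atractylodin library, though by less than Ccnd1 itself. Ccnd1 is part of this sum and was chosen for its lower level, so the lower sum largely restates the difference of Ccnd1. QuantSeq gives about 1 tag per transcript, so these counts were summed without a correction for transcript length.

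**Figure D2:**
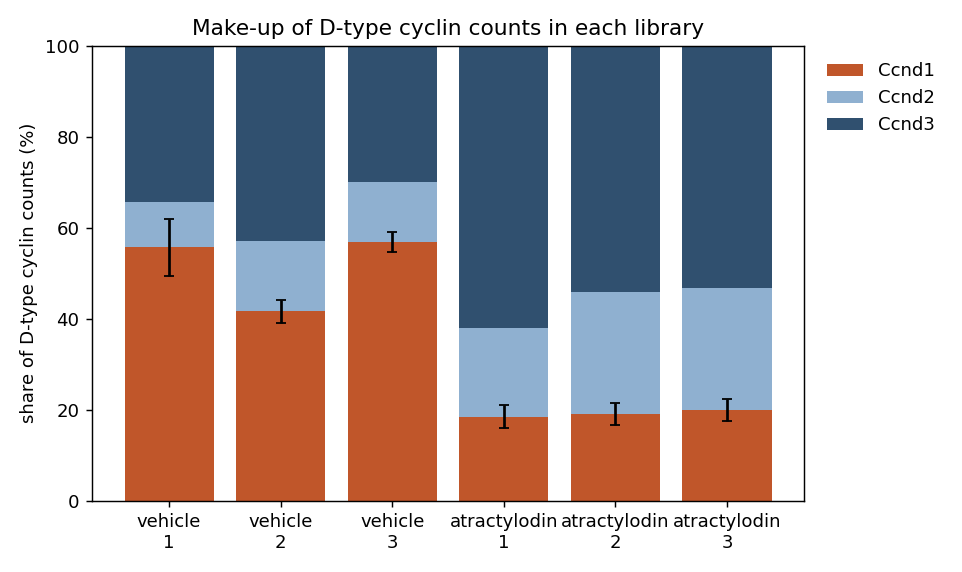
Share of the summed Ccnd1, Ccnd2 and Ccnd3 counts (y axis, percent) in each of the 6 libraries (x axis). Segments are the 3 genes and the error bars are 95% binomial intervals of the Ccnd1 share, which lies between 41.6% and 56.9% with vehicle and between 18.4% and 19.9% with atractylodin.

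Cdk4 (chromosome 10, 127063534 to 127067920) encodes the kinase that D-type cyclins activate in most tissues. It stood at 14.0, 13.3 and 11.5 CPM with vehicle and 14.4, 9.92 and 12.4 CPM with atractylodin. The groups overlapped, with the highest and the lowest value both in the atractylodin group. The log2 fold change was -0.05 ± 0.20 (SE, 95% interval -0.46 to 0.36), and its sign turned without vehicle 2 (0.00) or without atractylodin 2 (0.08). Tspan31, which covers the 3' end of Cdk4 on the opposite strand, stood at 98.0 ± 7.08 and 104.7 ± 7.58 CPM (SD, n = 3) and did not pass (edgeR adjusted p = 0.670). The ratio of Ccnd1 to Cdk4 counts, another value within a library, was 5.42, 3.94 and 7.39 with vehicle and 1.15, 2.01 and 1.48 with atractylodin. With Cdk4 not called, this ratio mainly repeats the difference for which Ccnd1 was chosen.

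The promoter of Cdk4 is shown because it carries repeated E-boxes, the letters that MYC with its partner MAX is known to bind, and both Cdk4 and Myc are among the 9 genes. The sequence is from RefSeq on GRCm38.p6, chr10:127063285-127063534, plus strand, the 250 bases before the start, with each CACGTG in capitals.
Cdk4: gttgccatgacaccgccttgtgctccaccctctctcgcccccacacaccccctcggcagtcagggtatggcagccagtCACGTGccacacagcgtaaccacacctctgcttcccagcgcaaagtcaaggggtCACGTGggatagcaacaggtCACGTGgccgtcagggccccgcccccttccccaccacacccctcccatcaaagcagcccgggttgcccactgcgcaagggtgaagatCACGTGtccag
CACGTG, which reads the same on both strands, occurs 4 times, beginning 172, 118, 98 and 11 bases before the start. At least 1 copy was present in 6.02% of 32851 promoter windows of the same length, and at least 4 in 0.0213%. A match of letters is a description and not a measured binding site. Of the 9 genes, 5 had a window in the table: Ccnd3, Cdk4, Cdk6, Cdkn1a and Cdkn1b. Among their 7 windows, CACGTG was also found once in that of Cdk6.

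Cdk6 (chromosome 5, 3341485 to 3531008), the second kinase of D-type cyclins, was near the limit of detection. Its level was 3.23, 1.89 and 1.05 CPM with vehicle, of which the first rests on 6 counts, and 1.10, 1.46 and 1.67 CPM with atractylodin. The groups overlapped, and the log2 fold change was -0.30 ± 0.53 (SE), which moved to -0.05 without vehicle 1. The 95% interval ran from -1.40 to 0.81, so at this depth a modest change of Cdk6 could not be detected.

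Cdkn1a (chromosome 17, 29090976 to 29100727) encodes p21, a target of the tumour suppressor p53 that halts the cycle. It stood at 28.5, 29.1 and 39.5 CPM in the vehicle libraries and at 90.7, 17.5 and 63.0 CPM in the atractylodin libraries. Atractylodin 1 and 3 were above all vehicle libraries and atractylodin 2 was below them all. The coefficient of variation was 19.1% with vehicle and 64.7% with atractylodin, the widest of the genes above 5 CPM among the 9. The log2 fold change was 0.79 ± 0.67 (SE) and was not called. Without atractylodin 2 it was 1.21 and was called higher, so a single library decided this call. Counts of that library for Cdkn1a were 168, against 910 and 754 in the other atractylodin libraries.

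An upstream start of Cdkn1a is shown because this gene varied most within the atractylodin group among those of the 9 above 5 CPM, and because p53 targets were examined beside it. The sequence is from RefSeq on GRCm38.p6, chr17:29090729-29090978, plus strand, the 250 bases before the start. Capitals mark a match to the p53 response element, taken as 2 abutting repeats of its consensus with at most 1 mismatch outside the invariant C and G letters.
Cdkn1a: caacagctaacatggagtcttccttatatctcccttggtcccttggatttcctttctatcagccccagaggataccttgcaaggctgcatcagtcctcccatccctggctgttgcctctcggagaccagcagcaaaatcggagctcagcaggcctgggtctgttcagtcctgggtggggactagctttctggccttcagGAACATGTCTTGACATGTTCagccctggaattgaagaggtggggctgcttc
The match runs from 51 to 32 bases before this start and was the only match among the 7 windows. Such a match was present in 0.0578% of the 32851 windows. The other Cdkn1a window, before a start further downstream, held none but had 2 copies of the GC box GGGCGG, which 32.7% of all windows contain on either strand. Neither TTTCCCGC or TTTGGCGC (E2F), TGACGTCA (the cyclic AMP element) nor TGANTCA (AP-1) was found on either strand of the 7 windows. These letters were present in 1.30%, 1.55% and 6.75% of all windows.

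Cdkn1b (chromosome 6, 134920401 to 134925513) encodes p27, which holds resting cells out of the cycle. It stood at 26.4, 24.8 and 25.3 CPM with vehicle and 34.6, 27.1 and 31.0 CPM with atractylodin. The groups did not overlap, with atractylodin higher, and 26.2% of all tested rows did not overlap in either direction. The log2 fold change was 0.29 ± 0.14 (SE, 95% interval -0.00 to 0.58) and was not called. The ratio of Ccnd1 to Cdkn1b counts was 2.88, 2.11 and 3.35 with vehicle and 0.481, 0.735 and 0.593 with atractylodin. Ccnd1 counts thus exceeded those of Cdkn1b in all 3 vehicle libraries and in no atractylodin library. Ccnd1 was chosen for its lower level, so this ratio largely restates the difference of Ccnd1.

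Rb1 (chromosome 14, 73183673 to 73325822) encodes the retinoblastoma protein, the substrate of these kinases. Its level was 6.998, 7.98 and 6.47 CPM with vehicle and 8.57, 10.65 and 7.85 CPM with atractylodin. The groups overlapped by a narrow margin, and the log2 fold change was 0.33 ± 0.23 (SE). Rcbtb2 on the opposite strand and Gm17233 on the same strand are annotated over its 3' end, so its counts may hold reads of either. Rcbtb2 stood at 17.9 ± 1.85 and 14.9 ± 2.97 CPM (SD, n = 3).

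Myc (chromosome 15, 61985391 to 61990374) was barely detected. There were 0, 16 and 12 counts in the vehicle libraries and 15, 2 and 7 in the atractylodin libraries, which is at most 1.49 CPM. The 0 of vehicle 1 allows a level of up to 1.61 CPM, which is above every other library. The groups overlapped and the log2 fold change was -0.41 ± 0.71 (SE), with a sign that turned without vehicle 2 (0.02) or without atractylodin 2 (0.03).

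**Figure D3:**
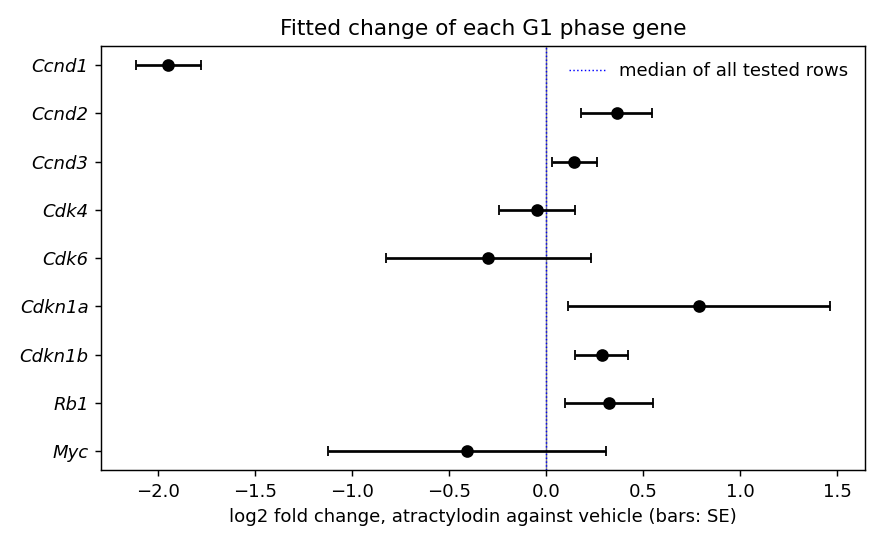
Fitted log2 fold change (x axis, atractylodin against vehicle) of each of the 9 genes (y axis), with bars of ± 1 SE from the edgeR fit and a dotted line at the median of all tested rows. Ccnd1 lies at -1.95 and the 8 other genes between -0.41 and 0.79.

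Other genes of the pathway were taken from 8 lists, 208 genes that exclude the 9, of which 174 were tested. In edgeR, 2 of them fell (1.15%) and 7 rose (4.02%), beside 3.33% and 3.92% of all tested rows. Shares near or below the background are no result about these genes. Their median log2 fold change was 0.05, beside -0.00 over all rows. Scaling by total counts alone moved the median of all rows to -0.09 and turned the medians of 4 lists below 0 (G1 partners, pocket proteins and E2F factors, mitogen signals and p53 targets).

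Among partners of D-type cyclins and other G1 genes, 1 of 13 rose and none fell, beside 3.92% and 3.33% of all tested rows. The gene that rose was Ccng2, an unconventional cyclin known for slowing the cycle. Its level was 5.92, 7.30 and 6.95 CPM with vehicle and 12.95, 14.2 and 12.4 CPM with atractylodin. Ccng2 rose 1.90-fold (log2 0.93 ± 0.20 SE, edgeR adjusted p = 0.00773) and kept its call whichever library was left out. It was higher in every atractylodin library than in any vehicle library, as were 13.5% of all tested rows. Cyclin E1 (Ccne1) and cyclin E2 (Ccne2), which act after the D-type cyclins and were picked by role after their values were seen, did not pass. Ccne1 was at 1.91 and 1.35 CPM and Ccne2 at 7.50 and 11.1 CPM in the group means of vehicle and atractylodin. Of 16 tested pocket proteins and E2F factors, 0 passed in edgeR, DESeq2 or limma-voom, while 4 had an unadjusted p under 0.05, beside 21.5% of all tested rows. The smallest p was that of E2f1, an activating E2F, at 5.04 ± 1.59 and 2.79 ± 1.15 CPM (SD, n = 3; edgeR adjusted p = 0.121).

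Genes of DNA replication, which E2F factors switch on, did not pass as single genes. Of 35 tested, 0 were called by edgeR, DESeq2 or limma-voom, and 5 had an unadjusted p under 0.05, beside 21.5% of all tested rows. Estimates were lower for 22 and higher for 13, with a median log2 fold change of -0.13, and under scaling by total counts 2 were called lower. Dut, which clears dUTP before replication, had the smallest p, at 11.4 ± 1.22 and 7.44 ± 0.795 CPM (SD, n = 3; edgeR adjusted p = 0.0796). Genes of G2 and mitosis were sparse, with 16 of 32 passing the filter. Of these 0 were called by edgeR, DESeq2 or limma-voom, and the median was -0.14. An unadjusted p under 0.05 was found in 4, beside 21.5% of all tested rows. The smallest p belonged to Ccnf, encoding cyclin F, at 12.9 ± 1.29 and 18.7 ± 3.12 CPM (edgeR adjusted p = 0.0682, and 0.0412 with no filter on low counts). The proliferation marker Mki67, named after its values were seen, was at 4.31, 1.97 and 1.62 CPM with vehicle and 1.59, 1.25 and 0.835 CPM with atractylodin. The log2 estimate was -0.86 ± 0.52 (SE; edgeR adjusted p = 0.370), and these levels were close to the 1.61 CPM floor of vehicle 1.

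**Figure D4:**
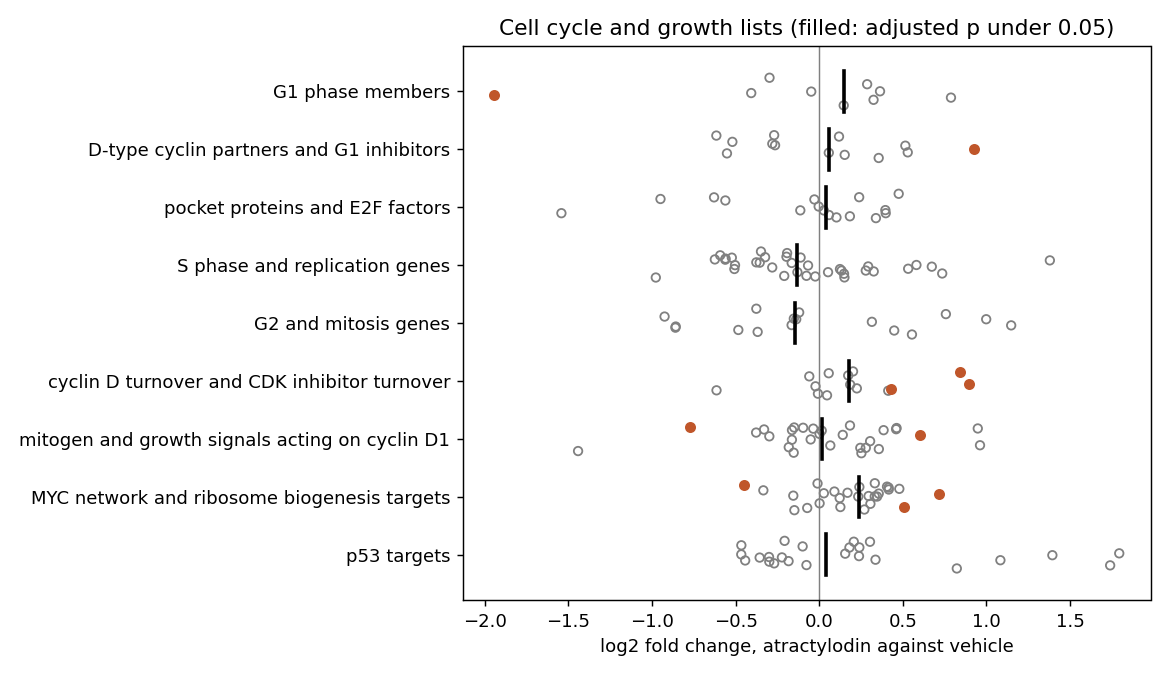
Log2 fold change (x axis, atractylodin against vehicle) of each tested gene in the 9 G1 phase genes and the 8 pathway lists (y axis). Each circle is a gene, filled circles passed an adjusted p of 0.05 in edgeR, and black bars are list medians, which lie between -0.14 and 0.24. Circles are spread vertically only to keep them apart.

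Genes acting on the stability of cyclin D and of CDK inhibitors gave 3 rises and no fall among 14, beside 3.92% of all tested rows called higher. Each leave-out called 1 or 2 of them higher. Usp2, a ubiquitin protease known to spare cyclin D1 from degradation, stood at 57.1, 84.5 and 53.9 CPM with vehicle and 121, 135 and 113 CPM with atractylodin. It rose 1.86-fold (log2 0.90 ± 0.16 SE, edgeR adjusted p = 0.00901) and kept its call whichever library was left out. Fbxo31, an F-box protein known to send cyclin D1 for degradation, stood at 74.8, 43.8 and 49.96 CPM and at 87.5, 88.2 and 111 CPM. It rose 1.79-fold (log2 0.84 ± 0.19 SE, edgeR adjusted p = 0.0320). Without vehicle 3, atractylodin 1 or atractylodin 2 the estimate was 0.77, 0.91 and 0.90 and was not called. Cul3, a ubiquitin ligase scaffold, rose from 41.8 ± 3.61 to 57.1 ± 3.79 CPM (SD, n = 3; edgeR adjusted p = 0.0262), and of the 6 leave-outs only that of atractylodin 2 kept this call. The genes that rose are thus known for opposite actions on cyclin D1 protein, which was not measured here.

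Mitogen and growth signal genes gave 1 rise and 1 fall among 29, beside 3.92% and 3.33% of all tested rows. An unadjusted p under 0.05 in edgeR was seen in 12 of the 29, beside 21.5% of all tested rows. The list was chosen with earlier results known and was not tested as a set, so this count is a description. Il6ra, encoding the interleukin 6 receptor, rose from 32.1 ± 5.33 to 47.5 ± 4.46 CPM (SD, n = 3; edgeR adjusted p = 0.00958), a call lost without vehicle 2. Tgfbr2, encoding the receptor of the growth inhibitor TGF-beta, fell from 17.7 ± 4.49 to 10.1 ± 0.857 CPM (edgeR adjusted p = 0.0283), and of the 6 leave-outs only those of vehicle 3 and atractylodin 3 kept this call. The beta-catenin gene Ctnnb1, whose protein acts on the Ccnd1 promoter, was picked by role and stood at 233.1 and 227.9 CPM (edgeR adjusted p = 0.867). The median of this list was 0.02 and turned to -0.07 under scaling by total counts.

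In the MYC network and ribosome biogenesis list, 2 of 27 rose and 1 fell, beside 3.92% and 3.33% of all tested rows. The median log2 fold change of the list was 0.24. Nop58, a protein of small nucleolar RNA particles, rose from 29.9 ± 4.23 to 50.1 ± 7.93 CPM (SD, n = 3; edgeR adjusted p = 0.00391). Gnl3, which encodes nucleostemin, rose from 51.2 ± 4.92 to 73.1 ± 12.9 CPM (edgeR adjusted p = 0.0254). This call held only without vehicle 2 or atractylodin 2 among the leave-outs, and not with the replicate block (edgeR adjusted p = 0.0562). Mxd3, which competes with MYC for its partner MAX, fell from 83.3 ± 6.42 to 60.4 ± 3.48 CPM (edgeR adjusted p = 0.0106), a call lost without vehicle 1. Without vehicle 1, 1 member of this list rose and none fell. Of 24 tested p53 targets 0 passed in edgeR, 3 passed in DESeq2 and 2 in limma-voom. An unadjusted p under 0.05 in edgeR was found in 6, beside 21.5% of all tested rows. The list median was 0.04. The smallest p in edgeR was that of Trp53inp1, at 43.6, 37.5 and 51.0 CPM with vehicle and 139, 72.7 and 136 CPM with atractylodin (edgeR adjusted p = 0.0737). Its groups did not overlap, and 13.5% of all tested rows were likewise higher in every atractylodin library. With all 6 libraries it was called higher by DESeq2 (adjusted p = 0.000856), by limma-voom (adjusted p = 0.00887), and by edgeR with the replicate block (adjusted p = 2.92e-05), after thinning to equal depth (adjusted p = 6.09e-05) or with no filter (adjusted p = 0.0322). Without atractylodin 2 edgeR called it too, at a log2 estimate of 1.64, and no other leave-out did.

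Liver holds other cells than hepatocytes, and their markers were measured beside Ccnd1. In bulk liver, fewer cells of a type and less RNA per cell cannot be told apart. Cholangiocyte markers fell in 3 of 6 tested genes, beside 3.33% of all tested rows called lower, with a median log2 fold change of -0.95. Summed over 10 genes they were at 76.9 to 100.7 CPM with vehicle and 39.6 to 44.5 CPM with atractylodin. Sox9 fell from 28.3 ± 7.12 to 14.3 ± 1.97 CPM (SD, n = 3; edgeR adjusted p = 0.00434) and Tstd1 from 24.4 ± 4.84 to 10.8 ± 2.23 CPM (edgeR adjusted p = 0.00156). Spp1, encoding osteopontin, fell from 14.9 ± 1.26 to 6.68 ± 1.62 CPM (edgeR adjusted p = 0.00288). The defining keratin gene Krt19 was at 0.399 to 1.12 CPM in all 6 libraries, Krt7 at 0.199 to 1.08 CPM, and Cftr at 0 in every library but atractylodin 1. Without vehicle 1 the same number of cholangiocyte markers was called lower.

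Liver endothelial markers gave 3 falls and 1 rise among 12, beside 3.33% and 3.92% of all tested rows, with a median of -0.27. Each leave-out called at most 1 of them lower and at most 1 higher. Their sum was 515 to 534 CPM with vehicle and 456 to 474 CPM with atractylodin. Fcgr2b fell from 19.7 ± 2.09 to 12.4 ± 0.599 CPM (SD, n = 3; edgeR adjusted p = 0.0254), and of the 6 leave-outs only that of atractylodin 2 kept this call. Ptprb was the most abundant, at 100.6 ± 1.36 and 80.6 ± 3.42 CPM, and fell (edgeR adjusted p = 0.0437). Its estimate stayed between -0.35 and -0.30 in the 6 leave-outs, but none of them kept the call. Stab2, a scavenger receptor of sinusoids, fell from 37.3 ± 2.89 to 24.6 ± 5.56 CPM (edgeR adjusted p = 0.0283), a call kept in 1 of the 6 leave-outs. The rise was that of Lyve1, a hyaluronan receptor of sinusoids, from 31.4 ± 4.53 to 50.5 ± 12.4 CPM (edgeR adjusted p = 0.0414), named after its value was seen. None of the 12 was called by edgeR without vehicle 1. Macrophage markers (11 tested, sum 382 to 545 and 314 to 469 CPM, median -0.28) and stellate cell markers (10 tested, sum 378 to 499 and 301 to 411 CPM, median -0.33) had 0 calls in edgeR. With an unadjusted p under 0.05 there were 3 and 2 genes, beside 21.5% of all tested rows. DESeq2 and limma-voom called 0 macrophage and 1 stellate marker each. Their most abundant genes were Cd5l (124 ± 29.3 and 102.1 ± 25.6 CPM) and Dcn (299 ± 36.8 and 253 ± 50.4 CPM). Stellate estimates were lower for 8 genes and higher for 2. The largest was that of Col3a1 (log2 -2.22 ± 0.60 SE; edgeR adjusted p = 0.127), named after its values were seen. Col3a1 stood at 17.2, 48.9 and 18.2 CPM with vehicle and 9.57, 4.18 and 5.34 CPM with atractylodin. Col1a1 came next, at log2 -1.79 ± 0.57 (SE; edgeR adjusted p = 0.144). Lymphocyte markers summed to 11.8 to 17.5 CPM and 12.9 to 15.9 CPM, and Cd3e was at 0.429 CPM or less in every library. Only 2 of them were tested and neither was called by edgeR, DESeq2 or limma-voom, with 0 at an unadjusted p under 0.05. Ptprc, the most abundant, was at 9.50 ± 3.10 and 10.3 ± 1.93 CPM. Of 7 hepatocyte markers 1 rose and 0 fell, beside 3.92% and 3.33% of all tested rows. Hnf4a, a master regulator of hepatocyte genes, rose from 294 ± 25.7 to 478 ± 49.2 CPM (SD, n = 3; edgeR adjusted p = 0.000405). The part of other cell types in the level of Ccnd1 was not tested.

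The 5 genes outside the 9 whose log2 CPM was most like that of Ccnd1 over the 6 libraries were Ggact, Hlcs, Dexi, Dynlrb1 and Trim34a, with Pearson r from 0.990 to 0.994 among 9549 rows. These r are descriptions over 2 groups that differ and over the same 6 libraries, of which vehicle 1 was far shallower. All 5 were lower in every atractylodin library than in any vehicle library, as were 12.6% of all tested rows. The 5 were picked for their likeness to Ccnd1, which separates the groups, so this follows from the choice. Only Dexi ordered the 6 libraries as Ccnd1 did. Hlcs, encoding the ligase that attaches biotin to carboxylases, was the nearest in size. It stood at 10.8, 8.50 and 10.8 CPM with vehicle and 5.08, 4.91 and 5.34 CPM with atractylodin, and passed in edgeR (log2 -0.94 ± 0.23 SE, adjusted p = 0.0179), a call lost without vehicle 1 and without vehicle 3. Ggact, with the highest r, differed by -0.35 ± 0.11 on the log2 scale (SE; edgeR adjusted p = 0.0534) against -1.95 for Ccnd1.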

How the data were processed

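Liver RNA was extracted with Trizol and 500 ng went into each Lexogen QuantSeq library, per the labels' protocols. The authors deposited, for every library, raw counts by gene symbol. Bowtie2, bedtools and mm10 are named in the submitters' processing notes, without versions or roles; the annotation, strand setting and treatment of multiple matches are not given in the sources used here. Groups came from the sample titles.

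The 23282 rows (44 repeated symbols, kept) were filtered with filterByExpr, scaled by TMM and compared in edgeR 4.0.16 (R 4.3.3; robust quasi-likelihood test), with Benjamini-Hochberg adjustment over 12505 rows at 0.05. SE came from the estimate and its F statistic (estimate over root F), and intervals of it use the t distribution. The 9 genes, the lists and the tests were chosen with earlier results of these data known. Named genes were the 9, up to 3 called members of each pathway list (otherwise the smallest p), the most abundant and up to 2 called members of each marker list, and the 5 rows most like Ccnd1 (average log2 CPM of at least 2, prior count 2). Floors are 3 counts, and floors and binomial intervals cover counting error only.

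No library was a copy of another (chi-square per degree of freedom at least 2.75). Positions are from GENCODE M21 on GRCm38 (mm10). On simulated data for this comparison (12290 genes), 78 of 100 genes changed 2-fold and 40 of 100 changed 1.5-fold were recovered, with 18 false among 136 calls. Alternatives were DESeq2 1.42.0, limma-voom (limma 3.58.1), other scalings, other filters, a replicate block, thinning to 1831461 counts, and leaving out each library. Figures used matplotlib 3.10.9 under Python 3.11.15.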

Additional observations from a re-analysis of the deposited data

How the results depend on the processing

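The estimate of Ccnd1 stayed lower and called in all 15 alternatives, from -2.14 without vehicle 2 to -1.76 without vehicle 3. Ccnd1 was chosen for being lower in these same libraries, so these calls describe the settings and add no support. The difference of its share of D-type cyclin counts was -32.3 percentage points, and lay between -37.2 and -29.6 over the leave-outs, and at -33.5 and -35.6 with Ccnd3 or Ccnd2 alone in the denominator. The count of the 9 genes called lower was 1 in every alternative. The count called higher was 0 to 1 when 1 library was left out, the 1 being Cdkn1a without atractylodin 2.

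All genes called numbered 906, and 509 after thinning to the shallowest library, which also tested fewer rows. They numbered 467 (without vehicle 3) to 751 when 1 library was left out, with 494 without vehicle 1. Pathway genes called lower numbered 2, and 7 under total counts alone, 1 in limma-voom and 1 after thinning; leaving out 1 library gave 0 (without vehicle 1) to 3, with 1 without atractylodin 1 and 1 without atractylodin 2. Pathway genes called higher numbered 7, and 16 without a filter; leaving out 1 library gave 4 (without vehicle 3 or atractylodin 1) to 12 (without atractylodin 2). The cause of these moves was not tested.

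Signs turned for 4 genes: Cdk4, Alb and Ptprc, with estimates near 0, and Myc, at -0.41. Leaving out 1 library gave -0.17 to 0.084 for Cdk4 (0.0049 without vehicle 2), -1.26 to 0.027 for Myc (0.015 without vehicle 2), -0.11 to 0.0071 for Alb and -0.15 to 0.11 for Ptprc. Ptprc, at 0.0040, was also at -0.012 with upper quartile scaling, -0.081 under total counts, -0.077 in limma-voom, -0.0030 with the replicate block and -0.030 after thinning. Cdk6 and Myc were not tested with a mean CPM of at least 5 or after thinning.

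The replicate numbers pair nothing that the labels name. Deviations of same-numbered libraries correlated at -0.03, -0.09 and 0.02, and the replicate block called 811 genes and left Ccnd1 at -1.92. Depth limits Cdk6 and Myc, since 3 counts are 1.61 CPM in vehicle 1.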

Other observations

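Atractylodin 2 stood apart from the other atractylodin libraries for Cdkn1a and for several genes of the p53 target list, a pattern seen after the values were known and given as values with no explanation. Plk3, a stress-responsive kinase, was at 10.2, 24.7 and 23.2 CPM in vehicle 1, 2 and 3 and at 91.9, 34.8 and 87.7 CPM in atractylodin 1, 2 and 3. Ddit4, an inhibitor of mTOR signalling, was at 8.61, 18.5 and 8.41 CPM with vehicle and 37.5, 10.2 and 32.0 CPM with atractylodin. Gadd45g, of a family of growth arrest genes, was at 17.8, 18.3 and 31.1 CPM and at 47.0, 13.9 and 62.4 CPM. In these 3 genes, as in Cdkn1a, the second atractylodin library was the lowest of its group. Mdm2, the feedback inhibitor of p53, was at 46.8, 54.3 and 53.4 CPM and at 61.9, 59.1 and 53.4 CPM, without such a split. Of 24 tested p53 targets, 15 (62.5%) were lowest in atractylodin 2 among the atractylodin libraries, beside 34.0% of all tested rows. Genes of the list share these libraries and were seen first, so the share is a description.

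Without atractylodin 2, 4 p53 targets were called higher by edgeR, beside 400 of all 12882 rows tested in that fit. That library had been seen to be low in these genes, so the 4 are a description. In the fit of all libraries, estimates were lower for 12 of the 24 tested targets and higher for 12. With all libraries edgeR called 0 under the settings of the report, 1 with the replicate block, 1 after thinning and 2 with no filter. DESeq2 called 3 and limma-voom 2. Under the settings of the report, 6 had an unadjusted p under 0.05 in edgeR, beside 21.5% of all tested rows. In Ccnd1 that library was the highest of the atractylodin group, at 19.9 CPM, and still below every vehicle library.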
